A study of Mus musculus with 6 samples.

Results

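Matrix metalloproteinases (MMPs), ADAM and ADAMTS proteases, the protease-like ADAMTSL proteins and the tissue inhibitors of metalloproteinases (TIMPs) were followed by RNA-seq in the injured renal cortex of mice. Members were all genes whose symbol starts with Mmp, Adam, Adamts, Adamtsl or Timp followed by their number, 83 of the 22040 genes listed. Of these, 22 were Mmp, 33 Adam, 19 Adamts, 5 Adamtsl and 4 Timp genes. The series compares 3 samples labelled IR24h with 3 labelled sham, all of renal cortex from the inbred mouse strain C57BL/6. The sample titles call all 6 wild type (WT), and no engineered allele is named. The IR24h kidneys had both renal pedicles clamped for 30 min and were taken after 24 h of reperfusion, a model of acute kidney injury. The labels do not say what the sham procedure consisted of, nor how old the mice were. Since they do not say either that the libraries are separate animals, the p-values measure the spread between these libraries.

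MMPs and ADAMTSs are secreted or membrane-tethered zinc proteases that cut collagens, proteoglycans and other matrix proteins. ADAMs sit in the membrane and release the outer part of growth factors, cytokine receptors and adhesion molecules, a step called shedding. Most are made as inactive precursors, and TIMPs block them by filling the zinc site. In the kidney these proteins are known for turning over tubular basement membrane and interstitial matrix and for releasing ligands of the epidermal growth factor receptor. Messenger RNA was measured here, so activation and inhibition of the proteins were not measured.

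The proteases share a zinc-binding stretch in which 3 histidines hold the metal and a glutamate takes part in catalysis. Coding transcripts of 61 of the 83 members held the short form of this stretch when translated, and the 22 without it include the TIMPs and ADAMTSLs. The coding bases of this stretch are shown for the proteases on which the results turn, from GENCODE M21 on GRCm38. Capitals mark the codons of the first histidine, the glutamate and the 2 further histidines.
Mmp14: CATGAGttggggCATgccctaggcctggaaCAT
Mmp19: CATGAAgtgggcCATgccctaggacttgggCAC
Mmp7: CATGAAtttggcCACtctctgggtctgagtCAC
Mmp13: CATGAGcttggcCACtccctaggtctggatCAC
Adam8: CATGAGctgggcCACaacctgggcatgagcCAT
Adam12: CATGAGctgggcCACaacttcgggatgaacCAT
Adamts1: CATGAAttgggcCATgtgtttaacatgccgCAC
Adamts4: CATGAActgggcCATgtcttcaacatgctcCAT
Adam1b: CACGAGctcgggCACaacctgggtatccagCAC
Adam1a: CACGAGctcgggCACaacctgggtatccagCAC
These lie at chr14:54437627-54437659 for Mmp14, chr10:128795673-128795705 for Mmp19, chr9:7697614-7697646 for Mmp7 and chr9:7276573-7276605 for Mmp13, all on the plus strand. On the minus strand lie those of Adam8 (chr7:139987893-139987925), Adam12 (chr7:133961158-133961190), Adam1b (chr5:121501937-121501969) and Adam1a (chr5:121520089-121520121). An intron interrupts the stretch in Adamts1 (chr16:85799191-85799545, minus strand) and in Adamts4 (chr1:171253210-171253915, plus strand). Adam1b and Adam1a are identical over these bases. Of the 50-base stretches of Adam1b exons, 32.4% recur in other genes, most of all in Adam1a. Reads of this pair could thus have been split between them.

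IR24h libraries held 12877237 to 15998975 counts and sham libraries 14339985 to 17061844. Mitochondrial genes took 68.9, 26.2 and 49.2% of the counts in IR24h 1, 2 and 3 and 13.1 to 14.2% in sham libraries. IR24h 2 stood apart from IR24h 1 and 3, with correlations of log2 CPM across genes of 0.823 and 0.836, against 0.916 between IR24h 1 and 3. With the sham libraries IR24h 2 correlated at 0.848 to 0.859. CPM are counts scaled to a common library size after adjustment by edgeR's TMM method (trimmed mean of M-values), whose factor was 0.547, 1.22 and 0.861 in IR24h 1, 2 and 3. The gene length implied by the deposited counts and FPKM differed between the groups for 1681 of 12806 genes (13.1%), so part of the processing differed between the groups and cannot be told apart from them. Among members it differed for 4 of 47 compared, Adam17, Adam1a, Adamts10 and Adamts5, none of them called. Members were compared by a looser count rule than all genes, so these shares are not on the same footing. The called members Mmp3, Mmp7, Mmp19 and Adam1b had too few counts for this comparison. In bulk tissue, fewer cells of a type and less RNA per cell cannot be told apart.

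The injured cortex held more RNA of Mmp3, Mmp7, Mmp14, Mmp19, Adam8, Adam12, Adamts1, Adamts2, Adamts4, Adamts12 and Adamtsl4 and of the inhibitor gene Timp1, and less of Mmp13 and Adam1b. Of the 83 members, 16 had 0 counts in all libraries, 23 had at most 55 counts in all and did not pass the expression filter, and 44 were tested. In IR24h, 12 of the 44 were higher and 2 lower, called at a Benjamini-Hochberg adjusted p under 0.05 over the 13609 genes tested with edgeR's quasi-likelihood test. The 12 are 27.3% of the tested members, beside 8.65% of all genes tested called higher. The 2 are 4.55%, beside 7.62% of all genes called lower. The median log2 fold change was 0.82 over the tested members and 0.05 over all genes tested. At an unadjusted p under 0.05 there were 23 members (52.3% of those tested), beside 4645 of all genes tested (34.1%). Every IR24h library lay above every sham library for 18 of the 44 (40.9%), beside 19.9% of all genes tested, and below for 5 (11.4%), beside 21.7%. Since a gene can pass the filter through the group where it is high, the shares hold for tested genes only.

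**Figure D1:**
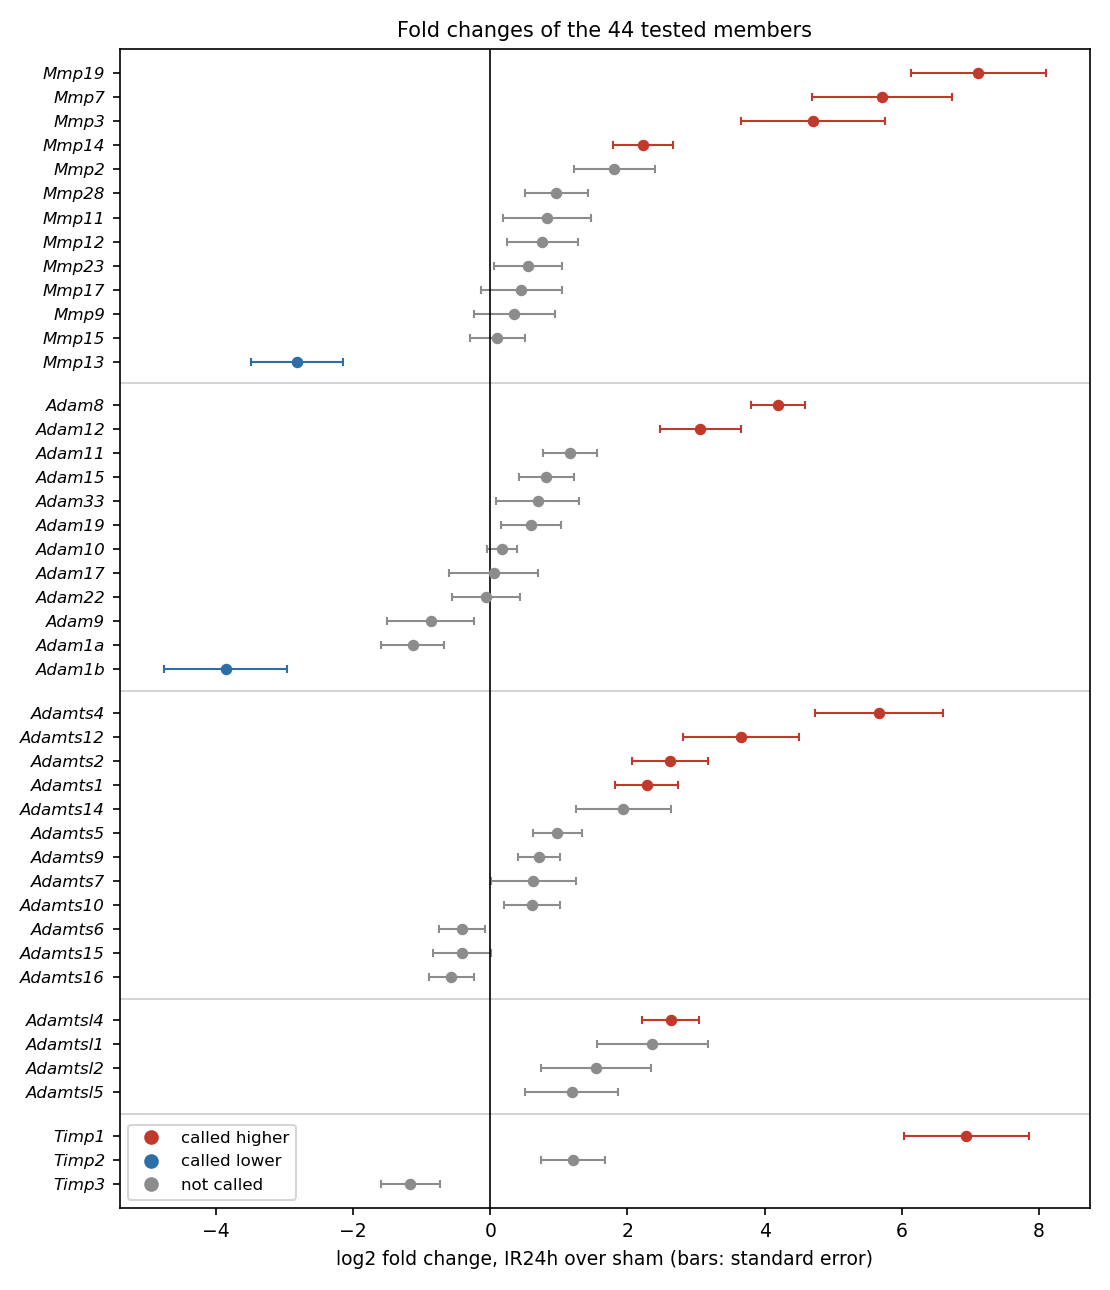
Log2 fold change of IR24h over sham (x axis) for the 44 tested members, grouped from top to bottom as MMPs, ADAMs, ADAMTSs, ADAMTSLs and TIMPs; points are estimates and bars standard errors. The 12 red points are called higher and the 2 blue ones, Mmp13 and Adam1b, called lower; Mmp19 has the highest value (7.12) and Adam1b the lowest (-3.86).

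Among the MMPs, calls fell in several enzyme classes. Of 22 Mmp genes, 13 were tested, 4 were higher (Mmp3, Mmp7, Mmp14 and Mmp19) and 1 lower (Mmp13), with a median log2 fold change of 0.83. Over all genes tested 8.65% were higher and 7.62% lower. Mmp14, the membrane-type protease that activates proMMP-2 at the cell surface, had 43.5, 14.2 and 26.9 CPM in IR24h 1, 2 and 3, against 7.02, 6.39 and 4.53 CPM in sham 1, 2 and 3. Each IR24h library lay above each sham library, with a log2 fold change of 2.23 ± 0.44 (SE; adjusted p = 0.0172). Of the other membrane-type MMPs, Mmp15 (log2 fold change 0.10) and Mmp17 (0.45) were tested and not called, and Mmp16, Mmp24 and Mmp25 were not tested. Mmp2, a gelatinase that MMP-14 activates, had 15.2, 5.06 and 3.23 CPM in IR24h libraries, against 2.57, 1.97 and 2.05 CPM in sham libraries. Its groups did not overlap either, but the fold change of 1.81 ± 0.59 on the log2 scale was not called (adjusted p = 0.0759). Mmp9, the gelatinase known from neutrophils and macrophages, had 0.284, 1.07 and 0.699 CPM in IR24h libraries, against 0.685, 0.385 and 0.647 CPM in sham libraries. These values overlap at levels near 1 CPM, with a log2 fold change of 0.35 ± 0.59 (adjusted p = 0.705).

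Mmp19, which encodes a secreted MMP that cuts basement membrane components, was near the floor of detection in sham cortex. It had 16.9, 3.73 and 4.81 CPM in IR24h 1, 2 and 3, against 0, 0.0962 and 0.0539 CPM in sham libraries. The IR24h group held 247 counts and the sham group 3, a pooled ratio of 123 (95% counting interval 41.6 to 601; counting error only), with a fitted log2 fold change of 7.12 ± 0.98 (adjusted p = 0.00510). IR24h 1 was the highest library. Exons of Tmem198b lie opposite 22.3% of the Mmp19 exon bases, and no label or header says whether the counts used strand. Tmem198b itself had a log2 fold change of 0.00 ± 0.34.

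**Figure D2:**
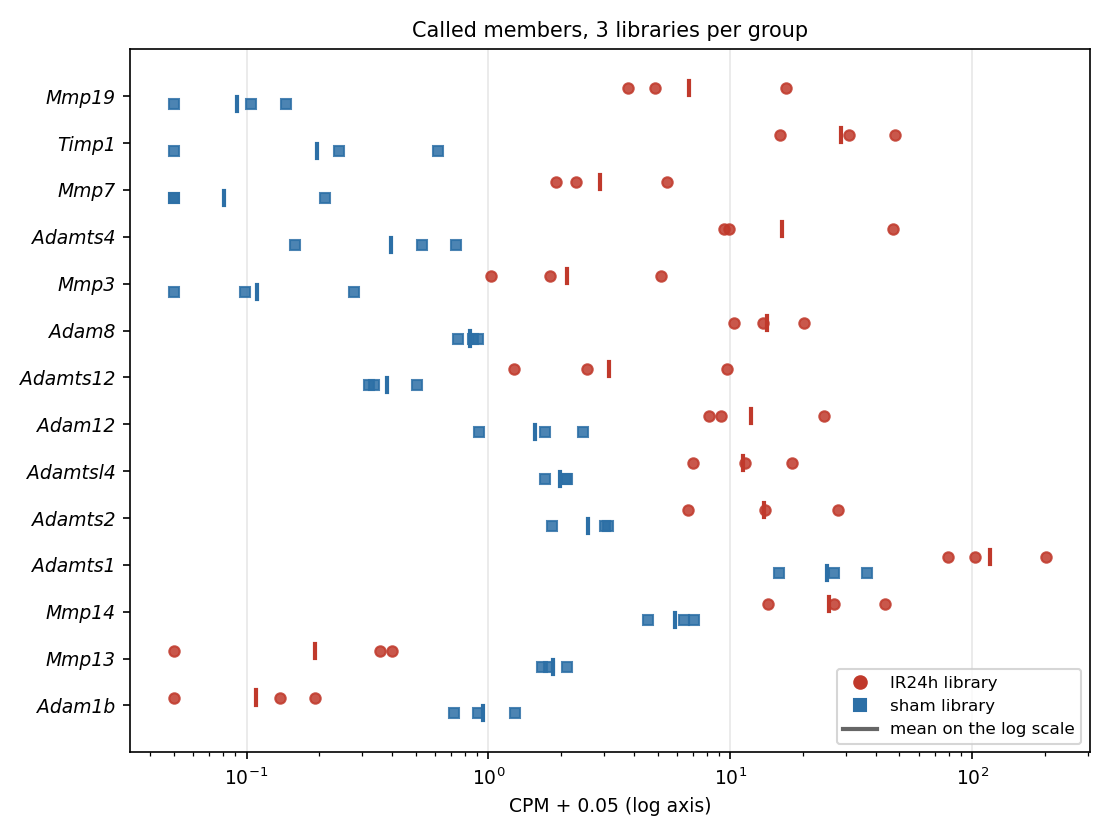
CPM + 0.05 on a log axis for the 14 called members, 3 IR24h libraries (red circles) above 3 sham libraries (blue squares) for each gene; bars mark the mean on the log scale. The groups do not overlap for any of the 14, and the lowest sham values of Mmp19, Timp1, Mmp7 and Mmp3 are at 0 CPM.

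Several Mmp genes lie side by side on chromosome 9, and calls among them went both ways. Between positions 7272514 and 7699585 (GRCm38), 427 kb, 9 listed Mmp genes follow each other: Mmp13, Mmp12, Mmp1b, Mmp3, Mmp10, Mmp8, Mmp27, Mmp20 and Mmp7. Mmp3 and Mmp7 were higher, Mmp13 was lower, Mmp12 was tested and not called, and 5 were not tested. Mmp7 encodes matrilysin, a small MMP of epithelia known to shed E-cadherin. It had 1.85, 2.25 and 5.42 CPM in IR24h 1, 2 and 3, against 0, 0 and 0.162 CPM in sham libraries. The IR24h group held 119 counts and the sham group 3, all in sham 3, a pooled ratio of 59.3 (95% counting interval 19.8 to 292) and a fitted log2 fold change of 5.71 ± 1.02 (adjusted p = 0.0124). Mmp3, stromelysin-1, which cuts many matrix proteins and activates other MMPs, had 5.11, 0.971 and 1.75 CPM in IR24h libraries, against 0.228, 0.0481 and 0 CPM in sham libraries. Each IR24h library was above each sham library, with a log2 fold change of 4.70 ± 1.05 (adjusted p = 0.0250).

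Mmp13, the main interstitial collagenase of rodents, moved the other way. It had 0, 0.307 and 0.350 CPM in IR24h 1, 2 and 3, from 0, 6 and 4 counts, against 2.06, 1.73 and 1.62 CPM in sham 1, 2 and 3, from 36, 36 and 30 counts. All IR24h libraries lay below all sham libraries, with a log2 fold change of -2.82 ± 0.67 (adjusted p = 0.0299). The other collagenase with counts, Mmp8, known as the collagenase of neutrophils, had 6, 9 and 11 counts in IR24h libraries, against 0 in each sham library, at least 13-fold higher against a floor of 3 counts over the sham group. It did not pass the expression filter, and with no filter it was called. Mmp10 and Mmp27, stromelysin-2 and a less studied neighbour, had few counts. Mmp10 had 0, 0 and 7 counts in IR24h 1, 2 and 3, against 0 in each sham library, at least 3.49-fold higher, a bound that rests on IR24h 3 alone. Mmp27 had 3, 0 and 7 counts in IR24h libraries, against 0 in each sham library, at least 4.98-fold higher, with 0 in IR24h 2. Mmp1b and Mmp20 had 0 counts in all 6 libraries. Mmp12, macrophage elastase, had 0.852, 2.56 and 1.92 CPM in IR24h libraries, against 0.856, 1.49 and 0.863 CPM in sham libraries, which overlap. Elsewhere in the genome, Mmp24 was the other member with more than 3 counts in IR24h libraries and 0 in sham libraries, with 0, 9 and 2 counts in IR24h 1, 2 and 3, 11 in all (at least 5.48-fold higher). Mmp25, Adam7 and Adamts13 had 0 counts in IR24h libraries, against 7 to 8 over the sham libraries, at least 1.56-fold to 1.78-fold lower. Adam21 had 0 counts in IR24h libraries, against 5 in sham 2 and 0 in sham 1 and 3, so its bound of 1.12-fold lower rests on 1 library.

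**Figure D3:**
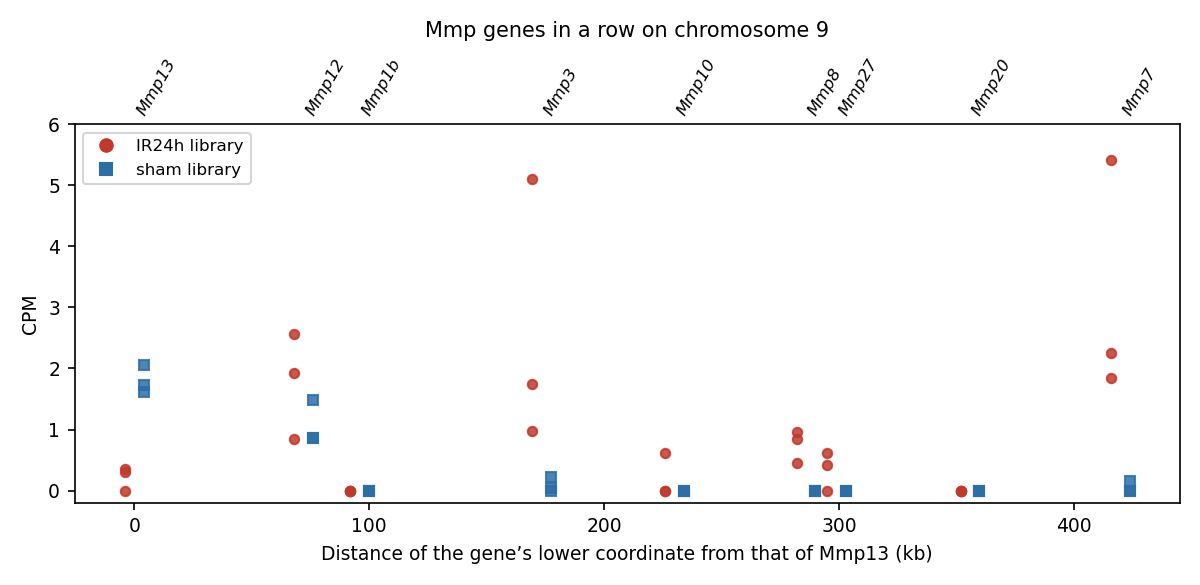
CPM of the 9 Mmp genes in a row on chromosome 9 (y axis, linear) against the distance of each gene's lower coordinate from that of Mmp13 in kb (x axis), with 3 IR24h libraries (red circles) drawn left of 3 sham libraries (blue squares). Mmp13 at the left end is lower in IR24h, and Mmp3 and Mmp7 are higher in IR24h; no gene of the row exceeds 5.42 CPM in any library.

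The promoters of this row are shown because its called genes moved in opposite directions while carrying the same short motif. AP-1, the Fos and Jun transcription factor, is known to bind TGAGTCA and TGACTCA. The motif counted was the broader TGANTCA, with any base at N, which reads the same on both strands for its fixed letters. Among promoter windows of 250 bases before to 50 after the gene start (RefSeq, GRCm38.p6), 12 of the 52 members with a window held it, 23.1%, and 8.97% of 27025 genes did. Before the gene start alone it was 21.2% of members and 7.82% of all genes. In the chromosome 9 row 7 of 9 genes held it before the start, all but Mmp8 and Mmp27. These 7 are most of the 11 members that held it there, so the share of members rests largely on this row. The others were Adam19, Adam20, Adam25 and Adam29. The match was TGAATCA in Mmp20, as in Adam20 and Adam25 elsewhere, which is not among the forms named for AP-1. The row includes the neighbours Mmp13, Mmp3 and Mmp7, whose 250 bases before the start are given with the motif in capitals.
Mmp3: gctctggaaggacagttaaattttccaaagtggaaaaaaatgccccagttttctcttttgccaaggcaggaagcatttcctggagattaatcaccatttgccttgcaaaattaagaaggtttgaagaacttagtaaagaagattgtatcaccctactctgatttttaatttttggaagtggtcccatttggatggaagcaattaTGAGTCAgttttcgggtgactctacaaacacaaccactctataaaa
Mmp7: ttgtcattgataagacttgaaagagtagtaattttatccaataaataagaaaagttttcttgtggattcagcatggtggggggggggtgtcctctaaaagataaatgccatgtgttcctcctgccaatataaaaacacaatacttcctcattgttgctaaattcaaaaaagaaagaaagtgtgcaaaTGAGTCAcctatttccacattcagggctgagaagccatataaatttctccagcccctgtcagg
Mmp13: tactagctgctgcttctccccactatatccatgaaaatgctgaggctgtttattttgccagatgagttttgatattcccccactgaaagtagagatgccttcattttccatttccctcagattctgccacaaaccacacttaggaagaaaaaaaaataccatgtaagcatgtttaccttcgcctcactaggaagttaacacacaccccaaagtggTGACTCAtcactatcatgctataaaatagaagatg
These are chr9:7445572-7445821, chr9:7691840-7692089 and chr9:7272264-7272513, all on the plus strand. The motif starts 46 bases before the gene start in Mmp3, 63 in Mmp7 and 35 in Mmp13. Of the members with a window, 2 of 9 called higher, 2 of 2 called lower and 2 of 17 tested and not called held the motif in the whole window, as did 6 of 24 not tested. A match is a description of these letters. Genes of the row are related in sequence, and the windows of Adam20 and Adam25 are nearly alike, so these genes are not independent.

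Among the ADAM genes, Adam8 and Adam12 were higher, and the classical sheddases were not called. Of 33 Adam genes, 12 had 0 counts in all libraries, all of them genes known mainly from testis and epididymis. Of the 12 tested, 2 were higher (Adam8 and Adam12) and 1 lower (Adam1b), with a median log2 fold change of 0.38. Over all genes tested 8.65% were higher and 7.62% lower. Adam8, a protease known from leukocytes, had 13.6, 10.3 and 20.2 CPM in IR24h 1, 2 and 3, against 0.856, 0.817 and 0.701 CPM in sham 1, 2 and 3. The spread within each group was small beside the gap between them, with a log2 fold change of 4.20 ± 0.39 (adjusted p = 0.00125). Adam12, a mesenchymal protease known to release heparin-binding EGF, had 24.4, 8.08 and 9.09 CPM in IR24h libraries, against 1.66, 2.40 and 0.863 CPM in sham libraries. Its lowest IR24h library was above its highest sham library, with a log2 fold change of 3.06 ± 0.59 (adjusted p = 0.0158).

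The sheddase Adam10, which processes Notch receptors and cadherins, had 55.5, 64.4 and 61.3 CPM in IR24h 1, 2 and 3, against 59.8, 52.1 and 48.8 CPM in sham libraries. These ranges overlap, with a log2 fold change of 0.17 ± 0.22 (adjusted p = 0.618). Adam17, which releases tumour necrosis factor and several EGF receptor ligands, had 29.0, 40.0 and 4.81 CPM in IR24h libraries, against 27.1, 26.6 and 17.8 CPM in sham libraries. IR24h 3 was below all sham libraries and IR24h 1 and 2 above them, with a log2 fold change of 0.05 ± 0.65 (adjusted p = 0.967). Adam9, a widely expressed sheddase, had 42.2, 100 and 12.3 CPM in IR24h libraries, against 97.4, 100 and 85.6 CPM in sham libraries. IR24h 2 lay at the sham level and the others below it, with a log2 fold change of -0.87 ± 0.64 (adjusted p = 0.373).

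Adam15 had 127, 42.9 and 92.5 CPM in IR24h 1, 2 and 3, against 45.5, 45.4 and 57.8 CPM in sham libraries, with a log2 fold change of 0.82 ± 0.40 (adjusted p = 0.192). Again IR24h 2 lay with the sham libraries. Exons of 4731419I09Rik lie opposite 20.6% of the Adam15 exon bases. Adam11, an ADAM without a protease motif, had 19.5, 33.6 and 13.5 CPM in IR24h libraries, against 11.2, 7.50 and 11.1 CPM in sham libraries. Its groups did not overlap, but it was not called (log2 fold change 1.16 ± 0.39, adjusted p = 0.0798). Adam1b, a subunit gene of the sperm protein fertilin family, had 0.142, 0 and 0.0874 CPM in IR24h libraries, against 0.856, 0.673 and 1.24 CPM in sham libraries. With 2 counts in the IR24h group and 52 in the sham group the pooled ratio was 0.0575 (95% counting interval 0.00678 to 0.218), with a log2 fold change of -3.86 ± 0.90 (adjusted p = 0.0281). Its near copy Adam1a had 2.41, 1.58 and 4.20 CPM in IR24h libraries, against 4.28, 5.53 and 8.09 CPM in sham libraries (log2 fold change -1.13 ± 0.46, adjusted p = 0.131). Both lay below sham in every IR24h library, and given the shared sequence the level of each is uncertain. Exons of Gm42878 overlap 63.7% of the Adam1a exon bases on the same strand, and exons of Tmem116 lie opposite 11.3%. Adam1b lies within Tmem116, with no exon bases in common. Tmem116 was itself called lower (log2 fold change -0.93 ± 0.23, adjusted p = 0.0330), and Gm42878 was not called (-0.04 ± 0.40). The part of these genes in the Adam1a and Adam1b levels was not tested.

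Among the ADAMTS proteases, 4 were called higher. Of 19 Adamts genes, 12 were tested, 4 were higher (Adamts1, Adamts2, Adamts4 and Adamts12) and 0 lower by edgeR. Over all genes tested 8.65% were higher and 7.62% lower, so 0 lower among 12 is close to the share over all genes. At an unadjusted p under 0.05, by DESeq2 and by limma-voom, 0 were lower too. The 12 tested Adamts genes had a median log2 fold change of 0.85. Adamts1, which cuts the proteoglycans versican and aggrecan, had 103, 202 and 79.6 CPM in IR24h 1, 2 and 3, against 36.7, 26.7 and 15.9 CPM in sham 1, 2 and 3. IR24h 2 was the highest library, with a log2 fold change of 2.28 ± 0.46 (adjusted p = 0.0183). With library size as the only scaling it was 1.95 and not called (adjusted p = 0.107). In that scaling the median over all genes was -0.39. Adamts4, another protease of versican and aggrecan, had 47.2, 9.87 and 9.35 CPM in IR24h libraries, against 0.685, 0.481 and 0.108 CPM in sham libraries. IR24h 1 stood highest, with a log2 fold change of 5.67 ± 0.93 (adjusted p = 0.00926).

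Adamts5 lies next to Adamts1 on chromosome 16 (85856173 to 85901828, beside 85793827 to 85803113) and cuts the same proteoglycans. It had 16.2, 12.9 and 14.8 CPM in IR24h 1, 2 and 3, against 9.14, 8.94 and 4.15 CPM in sham libraries. Its groups did not overlap, but the log2 fold change of 0.98 ± 0.36 was not called (adjusted p = 0.103), and its implied gene length differed between the groups. Adamts9, of the same class, had 29.5, 24.1 and 18.4 CPM in IR24h libraries, against 15.7, 17.1 and 11.1 CPM in sham libraries (log2 fold change 0.71 ± 0.30, adjusted p = 0.138). Adamts15, also of this class, had 19.0, 12.5 and 6.29 CPM in IR24h libraries, against 12.3, 18.1 and 19.4 CPM in sham libraries (log2 fold change -0.41 ± 0.42, adjusted p = 0.532). So of 5 tested proteoglycan-cleaving ADAMTS genes 2 were called, and 4 had every IR24h library above every sham library. Over all genes tested, 8.65% were called higher and 19.9% had every IR24h library above every sham library.

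Adamts2, which trims the amino-terminal propeptide from fibrillar procollagens, had 27.8, 6.65 and 13.9 CPM in IR24h 1, 2 and 3, against 3.08, 1.78 and 2.97 CPM in sham libraries. All IR24h libraries were above sham (log2 fold change 2.62 ± 0.56, adjusted p = 0.0213). Adamts14, of the same class, was tested and not called (log2 fold change 1.94 ± 0.69, adjusted p = 0.0935). Adamts12, a secreted protease known to cut cartilage oligomeric matrix protein, had 9.66, 2.50 and 1.22 CPM in IR24h libraries, against 0.457, 0.288 and 0.270 CPM in sham libraries. The groups did not overlap although IR24h 1 was several times the others (log2 fold change 3.66 ± 0.85, adjusted p = 0.0275). Adamts10, which binds fibrillin, had 22.7, 8.28 and 22.5 CPM in IR24h libraries, against 10.4, 12.9 and 11.6 CPM in sham libraries (log2 fold change 0.61 ± 0.41, adjusted p = 0.328). The remaining tested ADAMTSs, Adamts6, Adamts7 and Adamts16, had log2 fold changes from -0.57 to 0.63 and were not called.

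ADAMTSL proteins lack the protease domain and attach to fibrillin microfibrils. Of 5 genes, 4 were tested, with log2 fold changes from 1.19 to 2.63, and Adamtsl4 was called. It had 17.9, 6.95 and 11.4 CPM in IR24h 1, 2 and 3, against 1.66, 2.07 and 2.05 CPM in sham libraries, with each IR24h library above each sham library (log2 fold change 2.63 ± 0.42, adjusted p = 0.00844). Adamtsl2, which also binds a carrier protein of TGF-beta, had 112, 7.62 and 33.6 CPM in IR24h libraries, against 15.5, 17.8 and 19.3 CPM in sham libraries. IR24h 1 and 3 were above sham and IR24h 2 below it, which gave a log2 fold change of 1.54 ± 0.80 (adjusted p = 0.218). With IR24h 2 as the only IR24h library it was -1.19 (adjusted p = 0.0104), the opposite direction.

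Of the 4 TIMP genes, 3 were tested and Timp1 was called higher. Timp1, the secreted inhibitor known to be induced by cytokines, had 30.8, 16.0 and 48.0 CPM in IR24h 1, 2 and 3, against 0.571, 0.192 and 0 CPM in sham 1, 2 and 3. Every IR24h library was far above every sham library, with a log2 fold change of 6.94 ± 0.91 (adjusted p = 0.00441). The gene (chromosome X, 20870166 to 20874735) lies within Syn1, with no exon bases of another gene opposite it. Timp2, which takes part in the activation of proMMP-2 on MMP-14, had 107, 28.3 and 51.2 CPM in IR24h libraries, against 23.5, 29.5 and 27.6 CPM in sham libraries. IR24h 2 lay inside the sham range (log2 fold change 1.21 ± 0.47, adjusted p = 0.116).

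Timp3, the inhibitor that stays bound to the matrix and also blocks ADAM17 and ADAMTS proteases, had 624, 1283 and 486 CPM in IR24h 1, 2 and 3, against 1727, 2191 and 1474 CPM in sham 1, 2 and 3. Each IR24h library was below each sham library, but the log2 fold change of -1.17 ± 0.43 was not called (adjusted p = 0.101). It was called lower by DESeq2 and without IR24h 2. Exons of Syn3 lie opposite 21.3% of the Timp3 exon bases. Syn3 had 3.13 to 6.47 CPM in IR24h libraries and 5.45 to 7.54 CPM in sham libraries. Timp4 was not tested, with 0, 36 and 2 counts in IR24h libraries and 0, 2 and 7 counts in sham libraries, so that IR24h 2 held 36 of its 47 counts. IR24h 2 also held the most RNA of several genes known from adipocytes, among them Lep (22.2 CPM), Adipoq (16.0 CPM) and Plin1 (12.6 CPM). Lep and Plin1 had 0 counts in every other library, and Adipoq had 0.262 CPM in IR24h 3 and 0 elsewhere. Their part in the level of Timp4 and of other members was not tested.

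**Figure D4:**
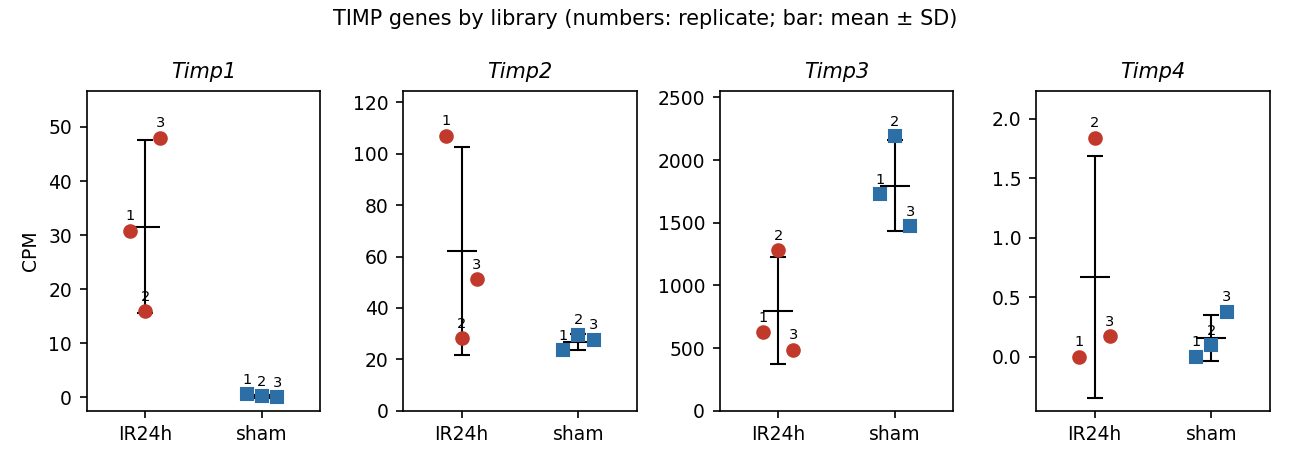
CPM (y axes, linear, 1 scale per gene) of the 4 Timp genes in 3 IR24h libraries (red circles) and 3 sham libraries (blue squares), numbered by replicate, with the mean and SD. Timp1 is above sham in all IR24h libraries, Timp3 is below it in all, Timp2 and Timp4 overlap, and IR24h 2 holds the highest IR24h value of Timp3 (1283 CPM) and Timp4 and the lowest of Timp1 (16.0 CPM) and Timp2 (28.3 CPM).

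Per gene length, Timp3 had the highest level of all members in both groups. In deposited FPKM, a level per kilobase of gene, Timp3 took 38.9% ± 15.1 (SD, n = 3) of the summed level of the members in IR24h libraries and 77.4% ± 2.79 in sham libraries. The IR24h libraries had 29.7, 56.2 and 30.6%, against 76.4, 80.5 and 75.2% in sham libraries, so the groups do not overlap. Computed from CPM per kilobase of GENCODE exon, the shares were 34.8% ± 14.6 in IR24h and 73.3% ± 3.16 in sham. After Timp3 in the order of mean FPKM came Adamts1 (19.6), Timp1 (18.7), Timp2 (11.2), Adam10 (8.65) and Adam9 (8.02) in IR24h libraries. In sham libraries the order was Adam9 (16.1), Adam10 (9.51), Timp2 (7.25), Adam15 (5.02) and Adamts1 (4.67). From CPM per kilobase of GENCODE exon, Timp1 came before Adamts1 in IR24h libraries. There the FPKM of these followers overlap between neighbours, for example 8.91 to 39.0 for Adamts1 and 12.2 to 29.8 for Timp1. In sham libraries Timp1 was under 1 CPM.

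IR24h libraries differed among themselves in which members were high. Of the 12 higher members, 8 had their highest level in IR24h 1, 3 in IR24h 3 (Adam8, Timp1 and Mmp7) and 1 in IR24h 2 (Adamts1), with the same counts under TMM, under library size and under counts outside the mitochondrial genome. Of the 44 tested members 28 were highest in IR24h 1 (63.6%), beside 29.4% of all genes tested, under TMM. Under library size alone it was 17 (38.6%), beside 6.74% of all genes. All 12 higher and both lower members were called without IR24h 2, and again with IR24h 2 as the only IR24h library, where its spread is assumed to be that of the other libraries. Without IR24h 2 the count of higher members was 24 (53.3%) and of lower members 4 (8.89%), while over all genes tested 3297 were higher (23.9%) and 3382 lower (24.5%).

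Markers of other cells moved in the same comparison, in which 8.65% of all genes tested were higher and 7.62% lower. Of 10 fibroblast and pericyte markers, all tested, 7 were higher, and their summed level was 1745, 305 and 796 CPM in IR24h 1, 2 and 3, against 137 to 152 CPM in sham libraries. IR24h 1 thus held the highest stromal sum and also the highest level of Adamts2, Adamts4, Adamts12, Adam12, Mmp3, Mmp14, Mmp19 and Adamtsl4. Of 10 macrophage markers 5 were higher (Cd68, Itgam, Msr1, Lyz2 and Cd14), with 137 to 306 CPM summed in IR24h libraries and 88.8 to 95.6 CPM in sham libraries. The macrophage marker Adgre1 had 0.284, 3.63 and 0.350 CPM in IR24h libraries, against 4.40, 4.52 and 4.32 CPM in sham libraries. Of 10 neutrophil markers 3 were tested and all 3 higher (S100a8, S100a9 and Csf3r), with 6.29 to 18.2 CPM summed in IR24h libraries and 1.02 to 1.71 CPM in sham libraries. The neutrophil genes Ly6g, Mpo and Camp had 0 counts in all libraries. Proximal tubule markers, which define the labelled cortex, were present in all libraries with 9492 to 17175 CPM summed in IR24h and 24881 to 29488 CPM in sham. Most of the IR24h sum was Kap, with 10826, 5080 and 13814 CPM in IR24h 1, 2 and 3. Its sham libraries had 8809, 9883 and 13142 CPM (log2 fold change -0.10 ± 0.47, not called). Of the 10 proximal tubule markers 5 were lower. For 9, all but Kap, every IR24h library lay below every sham library, beside 21.7% of all genes tested. Endothelial markers summed to 598, 88.6 and 591 CPM in IR24h 1, 2 and 3 and 395 to 435 CPM in sham (1 of 8 called, Kdr, lower). IR24h 2 alone lay below sham in this sum. Podocyte markers held 115 to 257 CPM in IR24h and 305 to 379 CPM in sham (0 of 6 called by edgeR). At an unadjusted p under 0.05 there were 3 podocyte markers lower, and 1 by DESeq2. Of neighbouring tissues, adipocyte markers summed to 292 to 335 CPM in IR24h and 419 to 463 CPM in sham. Most of that sum was Lpl, a gene of many tissues, with 256, 184 and 208 CPM in IR24h 1, 2 and 3, against 402 to 439 CPM in sham libraries. Of the markers more restricted to fat, Cidec had 6.82, 19.5 and 0.699 CPM and Cfd 3.13, 13.4 and 0 CPM in IR24h 1, 2 and 3, against at most 0.108 CPM (Cidec) and 0.171 CPM (Cfd) in sham libraries, with IR24h 2 the highest as for Lep, Adipoq and Plin1. Fabp4 went another way, with 66.8, 65.1 and 82.9 CPM in IR24h 1, 2 and 3, against 13.2, 16.6 and 23.4 CPM in sham 1, 2 and 3. It was above sham in every IR24h library and lowest of these in IR24h 2 (log2 fold change 2.01 ± 0.30, adjusted p = 0.00645). Of 8 adipocyte markers 2 were tested, with Fabp4 called higher and Lpl lower. Urothelial markers summed to 2.81 to 20.0 CPM in IR24h and 1.14 to 4.53 CPM in sham. Of 6 adrenal markers, Cyp11b1, Cyp11b2, Cyp11a1 and Cyp21a1 were at 0. Star had 4.12, 1.79 and 5.42 CPM in IR24h 1, 2 and 3, against 2.40, 2.64 and 2.43 CPM in sham libraries, and was not called. Hsd3b6 had 2 counts in sham 3 and 0 in all other libraries. The part of cell composition in the members' levels was not tested.

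The proteins on which these enzymes act or depend were taken from 6 lists of pathway genes. Over all genes tested 8.65% were higher and 7.62% lower. The share higher was 2.92% with total scaling, 15.2% with DESeq2, 23.9% without IR24h 2 and 1.78 to 2.10% without a sham library. The share lower in these settings was 4.49%, 12.5%, 24.5% and 1.41 to 1.70%, in the same order. Of matrix substrates, 18 of 20 were tested, with a median log2 fold change of 2.12. Of these 8 were higher and 0 lower by edgeR, where 1 was lower at an unadjusted p under 0.05 and 1 by DESeq2. The 8 were 4 with libraries scaled by total alone, 5 with limma-voom, 13 with DESeq2, 5 without IR24h 1, 14 without IR24h 2, 6 without IR24h 3 and 2 or 3 without a sham library. Col1a1, a chain of fibrillar collagen I, had 456, 80.9 and 238 CPM in IR24h libraries, against 19.1, 15.9 and 13.6 CPM in sham libraries (log2 fold change 4.0 ± 0.63, adjusted p = 0.00786). Col3a1, of fibrillar collagen III, had 591, 138 and 283 CPM in IR24h libraries, against 26.3, 22.5 and 22.5 CPM in sham libraries (log2 fold change 3.82 ± 0.55). Both are substrates that ADAMTS2 and collagenases act on, and both are highest in IR24h 1, like Adamts2. Fbn1, fibrillin-1, to which ADAMTSLs bind, had a log2 fold change of 3.03 ± 0.75, and the proteoglycan biglycan, Bgn, of 2.69 ± 0.68. Vcan, which encodes the ADAMTS substrate versican, was also called higher, as were Fn1, Vwf and Lama5. Col4a1, of basement membrane collagen IV, had 1861, 408 and 273 CPM in IR24h libraries, against 206, 204 and 197 CPM in sham libraries and was not called (log2 fold change 2.06 ± 0.70, adjusted p = 0.0826).

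Activators and clearance receptors of MMPs were higher for 4 of the 8 tested, beside 8.65% of all genes tested. The 4 were 1 with libraries scaled by total alone, 1 or 2 without a sham library and 3 to 5 in the other settings. By edgeR 0 were lower, beside 7.62% of all genes tested. At an unadjusted p under 0.05, by DESeq2 and by limma-voom, 0 were lower too. Plaur, the urokinase receptor that gathers plasmin formation at the cell surface, had 24.3, 35.1 and 34.9 CPM in IR24h libraries, against 2.40, 2.31 and 3.02 CPM in sham libraries (log2 fold change 3.61 ± 0.30, adjusted p = 0.00107). Lrp1, an uptake receptor for several MMPs, had a log2 fold change of 2.87 ± 0.70, Sdc1, syndecan-1, of 1.81 ± 0.26 and Plat, tissue plasminogen activator, of 1.77 ± 0.32. Klk1, tissue kallikrein, was the uncalled gene of highest CPM (log2 fold change -0.65 ± 0.32, adjusted p = 0.202).

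Inhibitors outside the TIMP family included genes called in both directions. Pzp, an alpha-macroglobulin that traps proteases, had 0.852, 13.9 and 2.18 CPM in IR24h libraries, against 96.9, 56.6 and 100 CPM in sham libraries (log2 fold change -3.85 ± 0.92, adjusted p = 0.0303). Serpine2 was higher by 1.92 ± 0.50 and Tfpi2 lower, at -1.54 ± 0.36, on the log2 scale. Cst3, cystatin C, was not called (log2 fold change -0.55 ± 0.38, adjusted p = 0.343).

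Of genes that guide sheddases to maturity, 1 of 12 tested was higher and 0 lower by edgeR, beside 8.65% and 7.62% of all genes tested. The 1 was 0 in the scaling by total, with the replicate block and without a sham library. At an unadjusted p under 0.05 there were 3 lower, and 1 by DESeq2. Rhbdf2, which encodes iRhom2, the partner that carries ADAM17 to the surface, had 26.8, 29.6 and 28.9 CPM in IR24h libraries, against 13.4, 15.3 and 11.5 CPM in sham libraries. All IR24h libraries were above sham, with a log2 fold change of 1.09 ± 0.24 (adjusted p = 0.0234), while Adam17 itself was not called. Furin, the convertase that cleaves the precursors, had 101, 269 and 102 CPM in IR24h libraries, against 266, 297 and 271 CPM in sham libraries (log2 fold change -0.82 ± 0.42, adjusted p = 0.212). Of the shedding substrates 23 were tested, 7 were higher and 1 lower, beside 8.65% and 7.62% of all genes tested. Their median log2 fold change was 0.76. The 7 were 3 with libraries scaled by total alone, 10 with DESeq2, 1 to 4 without a sham library, 5 without IR24h 1 and 11 without IR24h 2. The 1 lower, Kl, was not called in the scaling by total, without IR24h 3 or without a sham library. Cd44, a hyaluronan receptor shed by ADAM10 and MMP-14, had 29.0, 13.3 and 55.2 CPM in IR24h libraries, against 2.0, 1.68 and 1.08 CPM in sham libraries (log2 fold change 4.35 ± 0.59, adjusted p = 0.00488). Vcam1, a leukocyte adhesion molecule, rose by 3.79 ± 0.65 and Tnfrsf1b, a receptor of tumour necrosis factor, by 2.43 ± 0.53 on the log2 scale. Kl, which encodes the shed kidney protein klotho, had 39.6, 212 and 52.1 CPM in IR24h libraries, against 924, 1055 and 746 CPM in sham libraries (log2 fold change -3.16 ± 0.67, adjusted p = 0.0210). App, the substrate of highest CPM among those not called, had a log2 fold change of -1.19 ± 0.57 (adjusted p = 0.188).

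Of other zinc metalloproteinases of the cortex, outside the 83 members, 1 of 11 tested was higher, beside 8.65% of all genes tested. Another 2 were lower, beside 7.62%, and 8 were not called. The 2 were 0 in the scaling by total, without IR24h 1, without IR24h 3 and without a sham library, 4 with DESeq2 and 6 without IR24h 2. Bmp1, the procollagen C-proteinase that complements ADAMTS2, had 37.5, 18.3 and 28.3 CPM in IR24h libraries, against 5.71, 6.11 and 6.31 CPM in sham libraries (log2 fold change 2.21 ± 0.33, adjusted p = 0.00655). Mep1a, the meprin subunit of the proximal tubule brush border, had 204, 574 and 197 CPM in IR24h libraries, against 1446, 1401 and 1761 CPM in sham libraries (log2 fold change -2.24 ± 0.48, adjusted p = 0.0221). Ace, angiotensin-converting enzyme, had a log2 fold change of -2.36 ± 0.47 (adjusted p = 0.0174), and Mep1b was not called (-0.15 ± 0.86, adjusted p = 0.917). Mep1a and Ace lay in the same direction as the proximal tubule markers above.

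**Figure D5:**
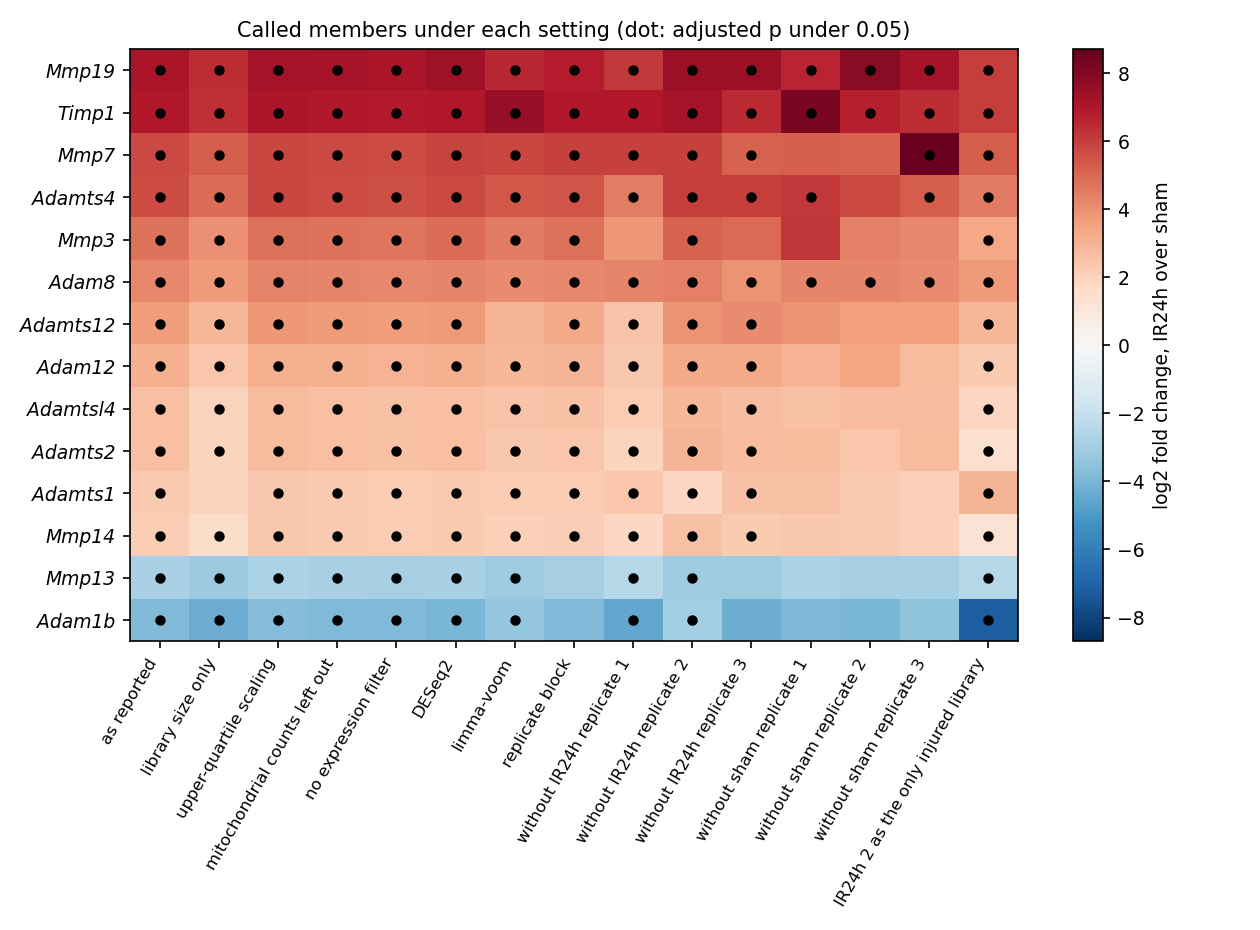
Log2 fold change of IR24h over sham (colour) for the 14 called members (rows) as reported and under 14 alternative settings (columns); a dot marks an adjusted p under 0.05. Signs are the same in every cell; Mmp19, Timp1 and Adam8 carry a dot in all columns, and most other dots are missing in the 3 columns that leave out 1 sham library.

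Several calls were lost when a library was left out, as the plot of calls by setting shows. Over all genes tested, 246 to 292 were higher and 196 to 237 lower without a sham library, against 1177 and 1037 as reported. Adam8, Timp1 and Mmp19 were called under all 14 alternatives, and each of the 14 called members kept its direction under all of them. Adamts4 lost its call without sham 2, and Mmp7 without sham 1 or sham 2. Adam12, Adamts1, Adamts2, Adamts12, Adamtsl4, Mmp14, Mmp3, Mmp13 and Adam1b lost theirs without any 1 of the sham libraries. Mmp3 also lost it without IR24h 1 or IR24h 3, and Mmp13 and Adam1b without IR24h 3.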

How the data were processed

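The authors deposited raw counts of reads per gene for 6 libraries, per the file headers, and FPKM values, scaled by length and depth. Per the submitters' processing notes CASAVA 1.8 and TopHat2 2.0.6 were used, with mm10 and GRCh38 named as builds; identifiers are mouse. No label or header names the counter, the annotation or the use of strand, so these are not given here. Libraries followed a TruSeq guide, per the labels. Of 22040 genes, 83 had no sham values and were left out (21957 remained).

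Counts were tested in R 4.3.3 with edgeR 4.0.16 (expression filter, TMM scaling, quasi-likelihood test, 2-sided, Benjamini-Hochberg adjustment over 13609 genes, called under 0.05), after checks on simulated data. The common biological coefficient of variation was 0.394. The simulated data had a smaller spread, alike in all libraries, so the checks do not show how well changes are recovered at this spread. Standard errors came from the quasi-likelihood F statistic. FPKM served only for levels per length and implied gene length, compared with a tolerance of 0.01 on the log2 scale. Over all genes, lengths were compared where all libraries had at least 5 counts. For members, any library with at least 5 counts in each group was enough. Alternatives were library-size and upper-quartile scaling, mitochondrial counts left out, no filter, DESeq2 1.42.0, limma-voom (limma 3.58.1), a replicate block and libraries left out. Where a group had 0 counts, bounds used 3 counts over the group; 95% counting intervals are exact and leave out PCR duplication and other errors. A symbol with several identifiers was counted once. Coordinates came from GENCODE M21 (GRCm38), active-site codons from its coding transcripts, promoters from RefSeq (GRCm38.p6).

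Members and lists were chosen with earlier results of these data known. Named members were the TIMPs, all called members, tested members of at least 10 CPM on average in either group, and Mmp2, Mmp7, Mmp9, Mmp14, Adam10, Adam17 and Adamts1. At most 4 genes of a list have values, those called with the largest change at 5 CPM or more, beside the uncalled gene of highest CPM. Members and markers named outside this rule were chosen after their values were seen. One inhibitor gene of the lists is not reported here.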

Additional observations from a re-analysis of the deposited data

How the results depend on the processing

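Over the 28 named, tested members and 14 alternatives, 338 values stayed on their side of the threshold, 38 lost a call, 15 gained one and 1 gained a call in the other direction, Adamtsl2 at -1.19 with IR24h 2 as the only IR24h library. Of the 338, 11 changed sign, all of members not called either way: 6 of Adam17 and 1 each of Adam9, Adam10, Adam15, Adamts10 and Mmp9. The count of higher members, 12, was 11 when libraries were scaled by total alone. That scaling put the median over all genes at -0.39 on the log2 scale (0.05 with TMM, 0.14 with upper-quartile scaling). It was 17 with DESeq2, which added Adam11, Adamts5, Adamts14, Adamtsl1 and Mmp2, and 11 with limma-voom. Over all genes tested, 1177 were higher as reported, 398 with total scaling, 2073 with DESeq2 and 1006 with limma-voom. Leaving out 1 library gave 3 to 24 higher and 0 to 4 lower members. Without a sham library 3 to 5 members and 246 to 292 of all genes were higher, and the high ends came without IR24h 2, with 3297 of all genes higher. No member was lower without a sham library or without IR24h 3. With IR24h 2 as the only IR24h library 15 members were higher and 6 lower, beside 2690 and 2749 of all genes. Leaving out libraries leaves fewer samples to estimate the spread, and the cause of the changes was not tested. Deviations from group means correlated at -0.109, 0.12 and 0.233 between the libraries numbered 1, 2 and 3. Libraries of unlike number were not compared, so these values cannot decide whether replicate numbers pair the samples. With the replicate block 12 members were higher and 0 lower. Depth limits the genes with few counts: 23 members had counts and could not be tested.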
